A study of Populus trichocarpa with 45 samples.

Results

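Very long genes of Populus trichocarpa, the black cottonwood, were described in leaf RNA across branches and trees. The span of a gene is the distance from its annotated start to its annotated end, introns included. All genes with a span at or above the 99th percentile were taken, which gave 347 of the 34700 genes in the tables. The threshold lay at 15293 bases, against a median span of 2914 bases over all genes. The very long genes had a median span of 18680 bases and together held 5.602% of the summed span of all genes. They were chosen on position alone, with no expression value.

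The 45 mRNA libraries came from 15 branches, with 3 libraries per branch and 5 branches each of trees 13, 14 and 4. All leaves came from wild growth, and the labels name no treatment. In the study, 13 and 14 are stems of the same individual while 4 is a different tree, but the labels describe leaves of just 1 wild tree. The 3 libraries of a branch are called biological replicates in the study's Results and technical replicates in its Methods, so differences between them may hold technical spread only. Tree 4 against trees 13 and 14 thus sets 1 individual against 1 other, and p-values for stems and trees measure spread between branches. For pairs of branches, p-values and SEs measure only the spread between libraries of a branch.

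A gene with a very long span carries long introns, many exons, or both, and in plants most introns are short while unusually long ones often hold transposable elements. Introns are spliced out before the mRNA is captured by its poly(A) tail, so the span itself does not set the number of sequenced fragments. That number follows the exonic length of the transcript, which the tables do not give. Levels are given as TPM, a measure of abundance per length of transcript that has the same sum in every library, here divided by 1 scaling factor per library. Genes carry identifiers without names, so no function can be given, and the labelled leaf tissue was not checked against marker genes.

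Depth ran from 11870000 to 35940000 fragments per library (median 23920000), and tree 13 had a median of 21010000, tree 14 of 23720000 and tree 4 of 31480000. Between the libraries of a branch, a set of 198 genes rose and fell together and took from 1.03% to 50.6% of all TPM. None of the very long genes was in that set (0 of 347). The set held over 30% of TPM in replicate 3 of branch 14.1, replicate 2 of branch 14.3, replicate 1 of branch 4.2 and replicate 2 of branch 4.3. Counts of called genes and the share above 0 TPM in every library are also given without those of these 4 libraries that they use. This choice was made after seeing the data.

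The 6 longest genes came first, to show how the extreme of the group is expressed. The longest, PtStettler14.19G089200, spans 54049 bases on the minus strand of chromosome 19 (13067873 to 13121921, coordinates of the Stettler genome as in the tables). Its scaled TPM ran from 0 to 0.163 with a median of 0.0478, and it was above 0 in 38 of 45 libraries. It holds another annotated gene on the same strand, so reads may be split between them. The gene was near the limit of detection in every tree.

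PtStettler14.15G066000, with 52994 bases on chromosome 15 (10116482 to 10169475), had a lowest, median and highest scaled TPM of 0.0928, 0.312 and 0.590. PtStettler14.17G028000, with 38479 bases on chromosome 17 (2692156 to 2730634), ran from 0.193 over 0.400 to 0.865. Both were above 0 in all 45 libraries and below 1 TPM in each. PtStettler14.11G060300, with 47265 bases on chromosome 11 (6888705 to 6935969), was listed at 0 in all but 9 libraries and reached 0.962.

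The remaining pair of the 6 longest genes stood higher. PtStettler14.19G039400, with 43774 bases on chromosome 19 (5090384 to 5134157, minus strand), was the longest gene above 1 TPM. Its scaled TPM was 9.53 at the lowest, 11.6 at the median and 14.2 at the highest over the 45 libraries. Branch means averaged 11.5 ± 0.775 in tree 13, 11.8 ± 0.439 in tree 14 and 11.9 ± 0.334 in tree 4 (SD, n = 5 branches each), so the trees overlapped. PtStettler14.01G135100, with 40735 bases on chromosome 1 (12441324 to 12482058), ran from 1.63 over 4.20 to 7.93.

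The 3 genes of the whole table most like PtStettler14.19G039400 over the 15 branch means were PtStettler14.19G069500 (r = 0.77), PtStettler14.01G310000 (r = 0.76) and PtStettler14.09G092700 (r = 0.76). Their spans of 6828, 5463 and 4414 bases were all below the threshold. These values are a description over 15 branches that share their trees, and they were the highest of all genes tested.

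At the threshold, PtStettler14.19G010400 (15321 bases, chromosome 19) and PtStettler14.08G095300 (15322 bases, chromosome 8) were the last genes included. Their mean scaled TPM was 0.0127 and 2.58. PtStettler14.11G008300 (15293 bases, chromosome 11) and PtStettler14.01G326600 (15291 bases, chromosome 1) were the first left out, with 0.00352 and 5.89.

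Very long genes were mostly expressed, at moderate levels. The median over the 347 genes of mean scaled TPM was 2.68, against 4.68 for the 3475 genes of median span (45th to 55th percentile) and 3.33 for all genes. On the log2(scaled TPM + 1) scale the median lay 0.60 below that of the median-span genes, with an SD of 0.135 over the same difference in each of 45 libraries, so it exceeded the spread between libraries. In bulk leaves, fewer cells of a type and less RNA per cell cannot be told apart.

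The group was narrow at both ends. Of the very long genes, 57.9% had a mean from 1 to 10 TPM, against 30.3% of median-span genes and 33.9% of all genes. Means above 10 TPM were found for 14.4%, against 36.8% and 30.3%. Means above 100 TPM were found for 3 genes, or 0.865%, against 6.01% and 4.35%. Among the very long genes themselves span and level were hardly related (Spearman rho = -0.07 across 347 genes, which are not independent replicates).

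Detection went the other way from level. Of the very long genes, 287, or 82.7%, were above 0 TPM in all 45 libraries, against 76.6% of median-span genes and 72.1% of all genes. Every class of span from the 55th to the 99th percentile had a higher share, from 84.9% to 90.3%. Only 4, or 1.15%, were at 0 in every library, against 5.04% and 6.24%. The longest of these was PtStettler14.16G118000, with 20115 bases on chromosome 16 (13926520 to 13946634). At equal TPM a longer transcript yields more fragments, and transcript length was not held equal here, so its part in these shares was not tested. With a minimum of 1 TPM in every library the order against median-span genes turned, with 55.6% against 58.0%. With the 4 libraries rich in the covarying set left out, 83.3% of very long genes were above 0 in all the rest. The shares were then 77.7% for median-span genes and 73.1% for all genes.

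Per library, between 304 and 326 very long genes were above 0 (median 317). The lowest count was in replicate 3 of branch 14.1, the shallowest library (11870000 fragments), and the highest in replicate 2 of branch 4.4 (28540000 fragments). The share averaged 90.3% ± 0.817 over tree 13, 90.9% ± 1.38 over tree 14 and 92.1% ± 1.15 over tree 4 (SD, n = 15 libraries each). The ranges of the trees overlapped.

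**Figure D1:**
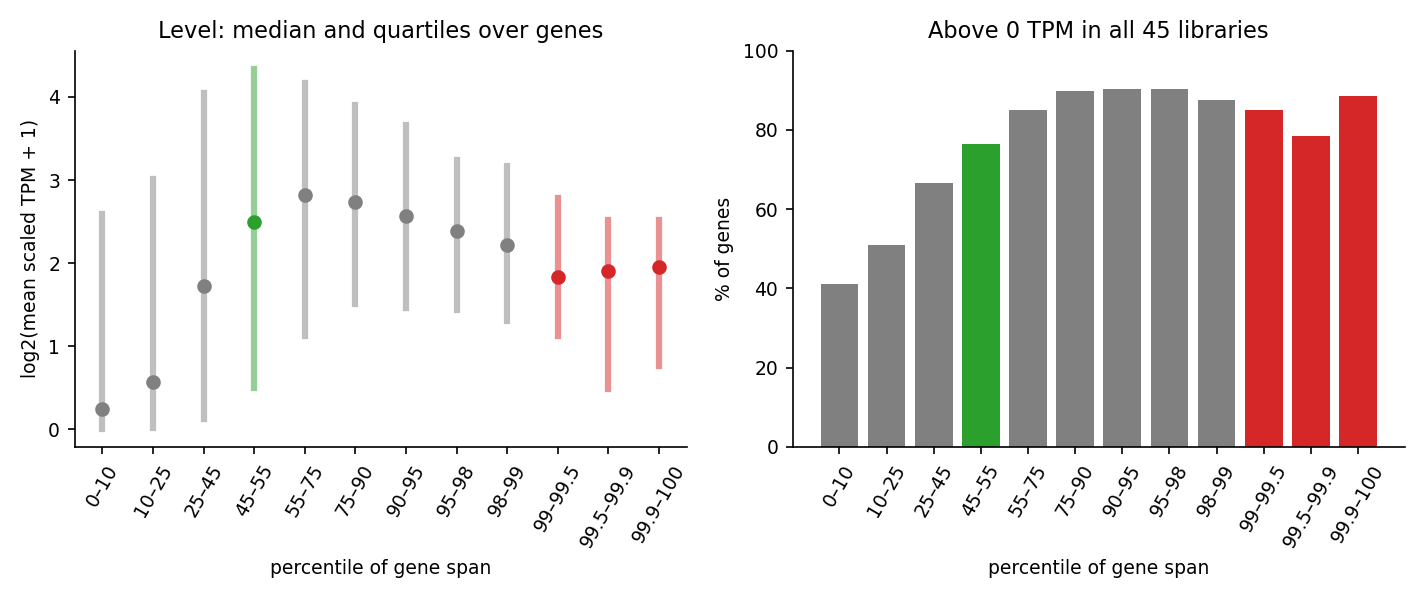
Level and detection by percentile of gene span, with very long genes in red, median-span genes in green and all others in grey. On the left, points and bars give the median and the quartiles of mean scaled TPM on the log2(value + 1) scale; on the right, bars give the share of genes above 0 TPM in all 45 libraries. The median was 4.64 TPM at median span and between 2.55 and 2.87 TPM in the 3 classes of very long genes, while detection in every library was 76.6% at median span and between 78.4% and 88.6% in these classes.

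The highest levels among very long genes were reached by PtStettler14.04G063400 on chromosome 4 (6079839 to 6096154). Its scaled TPM was 121 at the lowest, 189 at the median and 220 at the highest. PtStettler14.06G157100 (chromosome 6, mean 130) and PtStettler14.01G197200 (chromosome 1, mean 128) followed. Neighbours in this order overlapped over the libraries, since the former ran from 77.0 to 190 and the latter from 63.8 to 166.

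PtStettler14.10G159700 (mean 88.6, from 57.7 to 116), PtStettler14.12G047200 (mean 60.7, from 44.8 to 76.0) and PtStettler14.17G092100 (mean 54.8, from 23.3 to 111) completed the 6 highest. Of these 6 genes, only PtStettler14.12G047200 overlaps no other annotated gene. PtStettler14.04G063400, PtStettler14.01G197200, PtStettler14.10G159700 and PtStettler14.17G092100 each contain a gene on the same strand, and PtStettler14.06G157100 overlaps one in part. Reads in shared exons may be split between such genes, so their levels are uncertain.

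Overlap with other annotated genes was frequent. Of the very long genes, 82, or 23.6%, overlapped another gene, against 8.39% of all genes, and 55, or 15.9%, contained a whole gene, against 1.32%. A longer span offers more room for an overlap, and the 2 shares were not compared at equal span. The 41 very long genes that contained a gene on the same strand had a median level of 0.314 TPM. The 14 that contained a gene on the opposite strand only had a median of 5.603 TPM, and the 265 that overlapped no gene had 2.87 TPM.

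Detection in every library was 53.7% for very long genes containing a gene on the same strand and 88.3% for those overlapping none. There were 53 pairs of a very long gene and a gene nested in it on the same strand. The nested gene had the higher mean in 21 pairs and the very long gene in 32. The study's methods name no strand option for the aligner or the counter. Reads of overlapping genes on opposite strands may therefore not all be told apart either, which was not tested. Chromosome 19 had the largest share of very long genes (19 of 1172, or 1.62%), and their median level was 0.192 TPM, where the median of all its genes, 1.07 TPM, was also the lowest of the 19 chromosomes. Chromosome 8 had the smallest share among chromosomes (10 of 2033, or 0.492%), with a median of 2.36 TPM.

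The question of variation was addressed against median-span genes of equal TPM. A gene was tested when it reached 1 TPM in at least 3 libraries, which 263 of the 347 very long genes did. Each was set against the 10 median-span genes nearest to it in mean log2(scaled TPM + 1). Between the 3 libraries of a branch, the median SD over very long genes was 0.157, against 0.143 for their comparison genes. The median of the gene-by-gene ratios was 1.11. Taken branch by branch, the ratio had an SD of 0.247 (n = 15 branches), ran from 0.733 in branch 14.5 to 1.70 in branch 13.5 and was above 1 in 11 of 15 branches. Its distance from 1 was smaller than this spread.

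Across branches and across trees the order was the opposite in the median, though not at the highest levels. The median SD of branch means around their tree mean was 0.102 for very long genes and 0.117 for comparison genes, with a median ratio of 0.902. This SD also holds part of the spread between libraries, as does the SD of tree means. That part was subtracted only in the summed variance components. Tree 13 gave a ratio of 0.784, tree 14 gave 1.10 and tree 4 gave 0.756. The median SD of the 3 tree means was 0.0795 against 0.103, with a median ratio of 0.784. From 1 library per branch this ratio was 0.763, 0.717 and 1.07 for replicates 1, 2 and 3. The distance from 1 was smaller than the SD over trees (0.192) for branches and slightly larger than the SD over replicates (0.190) for trees.

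In summed variance components, libraries within a branch took 65.0% for very long genes, branches 14.01% and trees 21.0%. For the comparison genes these shares were 47.1%, 17.1% and 35.9%. The library ratio was larger in the more strongly expressed genes. It was 1.05 for the 45 genes from 1 to 2 TPM and 1.05 for the 113 from 2 to 5 TPM, but 1.29 for the 43 from 5 to 10 TPM and 1.29 for the 33 from 10 to 20 TPM and 1.26 for the 17 at 20 TPM or more.

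Single members covered a wide range. The library ratio was largest for PtStettler14.11G061300 (chromosome 11, 7089514 to 7107182), at 3.13, with a scaled TPM from 1.81 to 9.95. In branch 13.3 its 3 libraries read 4.94, 3.54 and 1.81. PtStettler14.10G229800 had a ratio of 3.11 and in branch 13.5 read 10.02, 9.51 and 2.98. In that gene single libraries stood far below the others of their branch, and it contains 3 other genes on the same strand.

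PtStettler14.05G071700 (chromosome 5, 5573384 to 5598361), which overlaps no gene, had a ratio of 2.78. Its libraries in branch 14.2 read 1.41, 4.46 and 1.96. The ratio was smallest for PtStettler14.17G093600, at 0.373, and over all 45 libraries this gene stayed between 16.0 and 20.1 scaled TPM with a median of 18.3. PtStettler14.06G133600 (ratio 0.542, from 42.5 to 52.5) and PtStettler14.01G228100 (ratio 0.551, from 29.5 to 39.0) were also steady.

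In scaled TPM, very long genes moved together from library to library, and median-span genes of similar level did so far less. In each library the deviation of every tested gene from its branch mean was taken, and then the median over genes. For very long genes this median ran from -0.19 to 0.20 on the log2 scale, with an SD of 0.0866 over 45 libraries. For the nearest median-span gene in level it ran from -0.06 to 0.03, with an SD of 0.0170. It passed 0.05 in size in 23 libraries for the former and in 1 for the latter. With TPM as deposited it did so in 33 and 27 libraries, and the SDs were 0.177 and 0.155.

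The contrast was clearest in branch 13.5. In replicate 2 of that branch 231 of 263 very long genes were above their branch mean, and in replicate 3 only 33 were. Of the nearest median-span genes, 41.8% and 52.5% were above it in the same libraries. These libraries had 20260000 and 20200000 fragments, and the 198 covarying genes took 3.28% and 6.58% of their TPM. In branch 13.3, 215 very long genes were above the mean in replicate 2 and 34 in replicate 1. In branches 14.5 and 4.4 the 3 libraries stayed within 0.03 of each branch mean.

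The library in which very long genes stood highest was also the deepest of its branch in 5 of 15 branches and the shallowest in 3. It had the largest share of the covarying set in 7 branches and the smallest in 1. The part of depth and of that set in the shift was not tested further. Over 45 libraries, the mean correlation between pairs of very long genes in their deviations was 0.327, against 0.00959 between the median-span genes. Among the 216 very long genes that overlap no other gene it was 0.401. These correlations share the same 45 libraries and are given as a description.

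**Figure D2:**
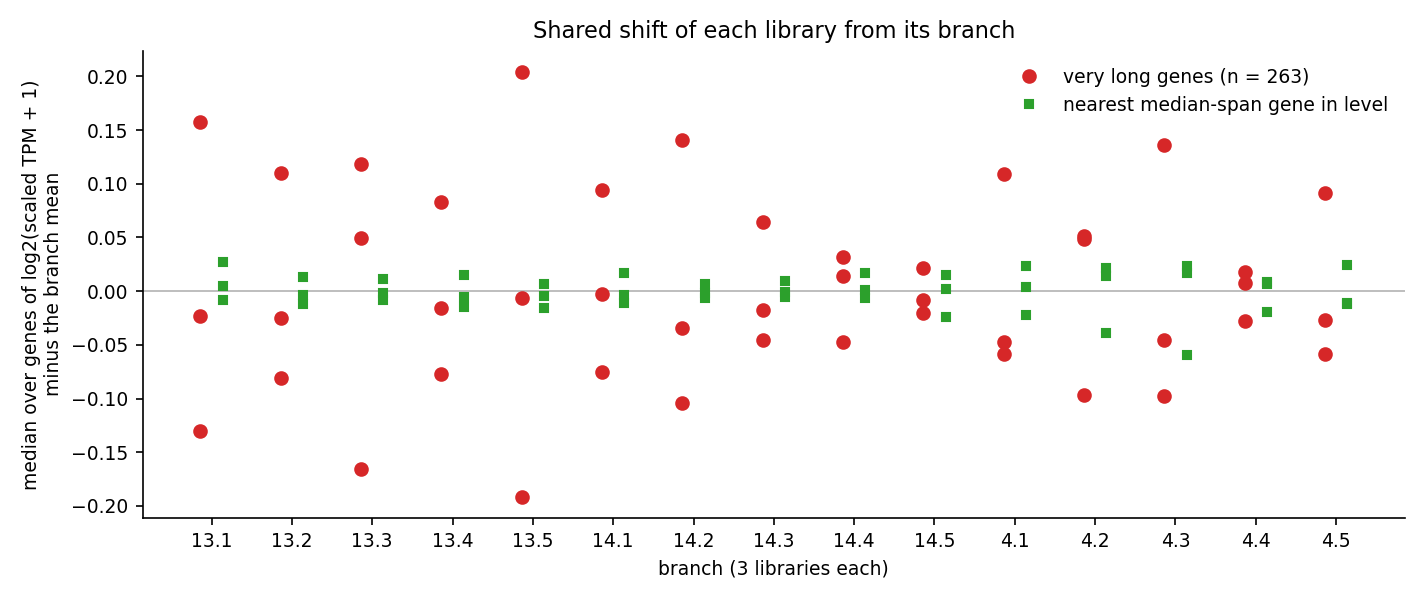
Median deviation of genes from their branch mean in each of the 45 libraries, on the log2(scaled TPM + 1) scale, by branch. Red circles are the 263 tested very long genes and green squares the median-span gene nearest to each in level. The red circles spread from -0.19 to 0.20 and the green squares from -0.06 to 0.03.

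The shift was graded by span. Genes within the middle quartiles of the level of very long genes were split into classes by span, from the shortest to the longest. The SD of the library median was 0.0649 for genes below the 10th percentile, fell to 0.00930 at median span and rose again to 0.0531 from the 90th to the 95th percentile, 0.0723 from the 95th to the 99th and 0.0901 for the very long genes. The mean pairwise correlation rose from 0.00335 at median span to 0.396 in the very long genes.

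Long and short genes shifted in opposite ways. Genes from the 95th to the 99th percentile deviated to the same side as the very long genes in 43 of 45 libraries. Genes below the 10th percentile did so in only 8. The scaling centres each library on the middle of all genes. Its part in the opposite directions and in the small shift at median span was not tested. With TPM as deposited, the SD of the library median was 0.177 for very long genes and 0.155 for the nearest median-span genes, and the lowest library was replicate 3 of branch 14.1 in both.

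**Figure D3:**
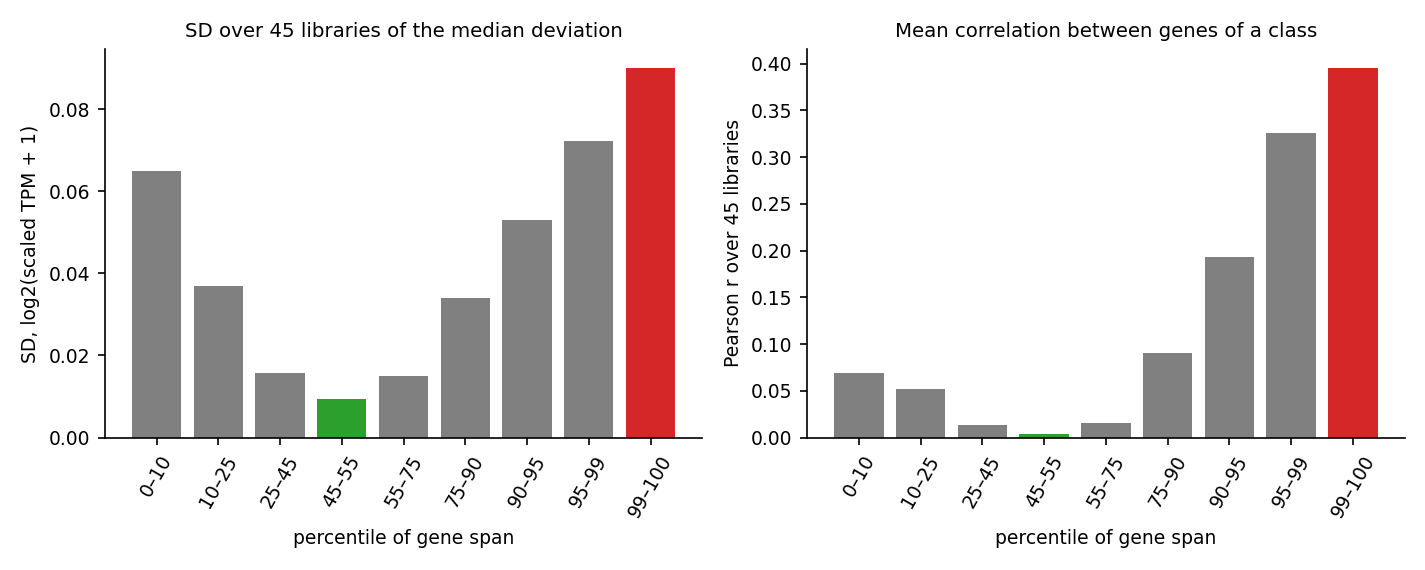
Shared movement by percentile of gene span, for genes of similar level, with very long genes in red and median-span genes in green. Bars on the left give the SD over 45 libraries of the median deviation from the branch mean, and bars on the right the mean Pearson correlation between pairs of genes of a class. Both are lowest at median span (0.00930 and 0.00335) and highest in the very long genes (0.0901 and 0.396).

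The shared movement also reached branch means. The median deviation of very long genes from the tree mean ran from -0.09 in branch 14.3 to 0.11 in branch 14.4, and for the nearest median-span genes from -0.02 to 0.03. When the median of the very long genes was taken out in each library, a choice made after seeing the data, the library ratio was 0.813 in place of 1.11, the branch ratio 0.731 in place of 0.902 and the tree ratio 0.602 in place of 0.784. The comparison genes were not centred, so lower ratios follow from how this setting is built.

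Branches were compared in pairs to ask which very long genes differ within a tree and between its stems. The 8 branches with a known age (13.1, 13.2, 13.3, 13.5, 14.2, 14.3, 14.4 and 14.5) gave 28 pairs, with genes called where the adjusted p did not exceed 0.01 and the log2 change reached 1 in size. The 3 libraries of a branch served as its replicates here, so a small p does not measure spread between samples of a branch. Of 258 very long genes tested, 4, or 1.55%, were called in at least 1 pair, against 5.56% of all tested genes and 6.59% of median-span genes of equal TPM. Calls came from 6 pairs, of which 5 included branch 13.1. Over all tested genes the pairs with most calls included it too, with 984 for 13.1 against 14.4, 845 against 14.5 and 669 against 14.3. The highest count without it was 388, for 13.2 against 14.4. Counted once per pair, 9 calls were higher and 3 lower in the second branch of the pair, and with TPM as deposited the split was 7 to 7.

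PtStettler14.06G150900 (chromosome 6, 17595419 to 17613097), which overlaps no gene, was called in 5 pairs. Its scaled TPM was 4.47, 4.49 and 3.64 in branch 13.1 and 15.4, 17.5 and 14.03 in branch 14.4. The groups did not overlap, and the change from 13.1 to 14.4 was 1.68 ± 0.120 (SE) on the log2 scale (limma, adjusted p = 1.04e-09). In tree 4, where no pair was tested, branch means ran from 5.06 in branch 4.4 to 14.5 in branch 4.5.

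PtStettler14.17G092100 (chromosome 17, 12335589 to 12350912) was called in 4 pairs, all with branch 13.1. It read 24.6, 27.4 and 23.3 there and 78.0, 74.2 and 67.6 in branch 14.5, a change of 1.51 ± 0.145 (limma, adjusted p = 7.02e-08). Branch 13.1 held the lowest branch mean of all 15 for both genes. PtStettler14.17G092100 contains a gene on the same strand.

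The other pair of called genes went the opposite way. PtStettler14.13G068200 (chromosome 13, 5821347 to 5841083) read 5.88, 8.72 and 7.38 in branch 13.1 and 2.63, 2.97 and 3.19 in branch 14.5, and fell by 1.07 (SE 0.211) on the log2 scale (limma, adjusted p = 0.000416). PtStettler14.01G011600 (chromosome 1, 937433 to 953485) read 18.8, 13.7 and 12.5 in branch 13.1 and 6.60, 4.65 and 5.71 in branch 14.3, and fell by 1.26 (SE 0.145; limma, adjusted p = 1.03e-06). Neither overlaps another gene, and in both the 2 branches were fully apart. Without replicate 2 of branch 13.1 the change of PtStettler14.13G068200 was -0.95, short of the fold threshold.

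**Figure D4:**
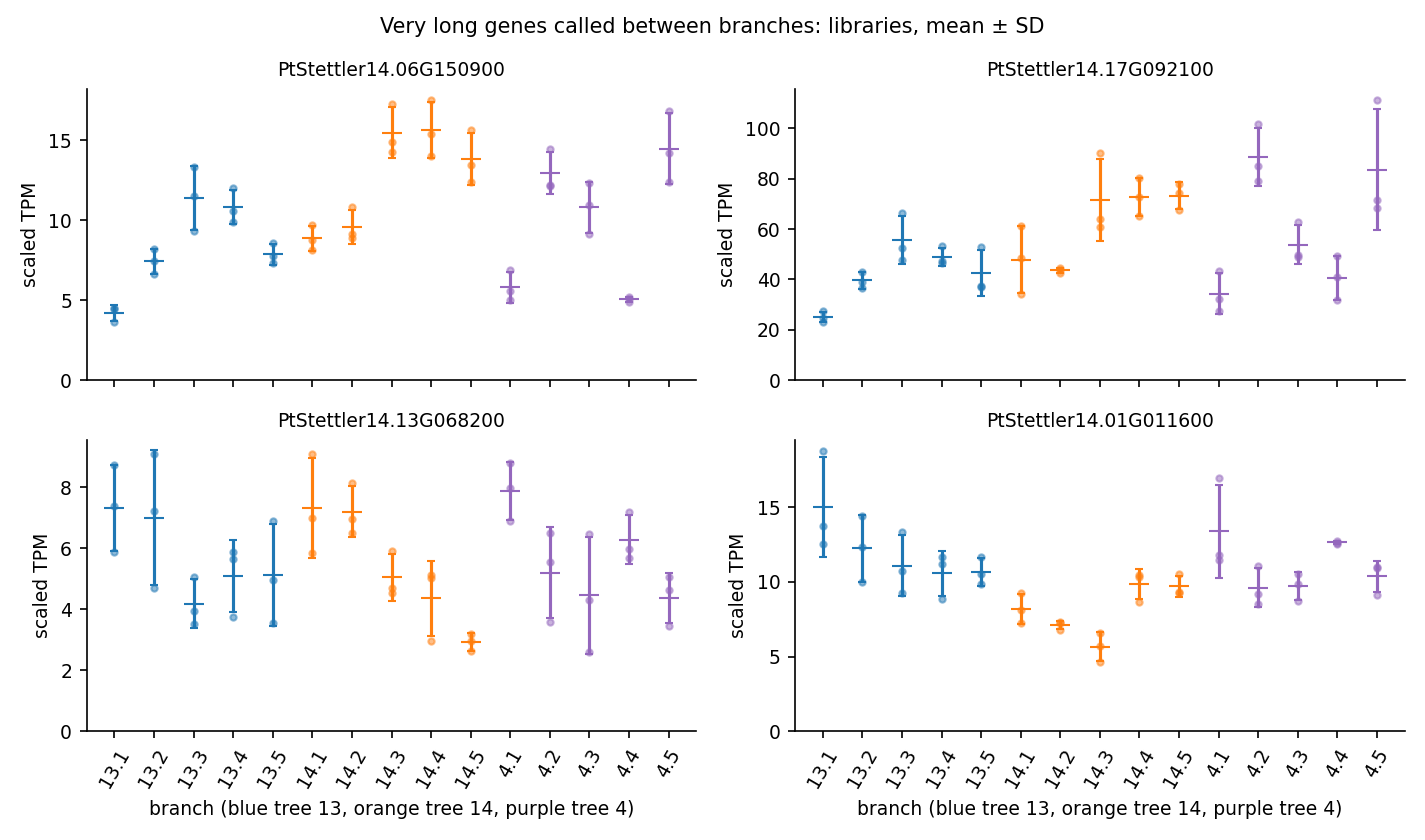
Scaled TPM of the 4 very long genes called between branches, in every library (points) with the mean and SD of the 3 libraries of a branch (bars), for trees 13 (blue), 14 (orange) and 4 (purple). PtStettler14.06G150900 and PtStettler14.17G092100 are lowest in branch 13.1, with means of 4.20 and 25.1. PtStettler14.13G068200 is lowest in branch 14.5 and PtStettler14.01G011600 in branch 14.3.

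Changes of weakly expressed genes are understated by the pseudocount of 1 TPM. With a pseudocount of 0.1 the count was 11 of 258, or 4.26%, against 9.12% of all tested genes, and among genes with a mean of at least 5 TPM it was 4 of 90, or 4.44%, against 5.63%. The count stayed at 4 without replicate 2 of branch 14.3. Among the libraries of these branch pairs, only that library had over 30% of TPM in the covarying set. The count also stayed at 4 with the median of the very long genes taken out. Over the 28 pairs the median change of very long genes ran from -0.12 to 0.21, whereas that of all tested genes ran from -0.01 to 0.00491.

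Stem 13 and stem 14 were compared on the means of 4 branches each. Of 258 very long genes, 4, or 1.55%, were called at an adjusted p of at most 0.05, all higher in stem 14, against 8.90% of all tested genes (4.97% higher and 3.93% lower) and 7.44% of median-span genes of equal TPM. At an unadjusted p under 0.05 there were 32 of 258, against 6872 of all 23393 tested genes. The median change was 0.04 over very long genes and -0.00305 over all tested genes, and it was -0.02 with TPM as deposited. With all 10 branches of both stems, 13.4 and 14.1 included, 2 were higher and 2 lower in stem 14. With the median of the very long genes taken out in each library, which sets their median change near 0, 4 were higher and 2 lower. The branch means of both stems were fully apart for 13 very long genes, or 5.04%, against 16.0% of all tested genes.

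PtStettler14.10G137900 (chromosome 10, 16370933 to 16392070) rose from 0.789 ± 0.163 scaled TPM in stem 13 to 1.57 ± 0.363 in stem 14 (SD, n = 4 branches), which is 0.53 ± 0.113 on the log2 scale (SE; adjusted p from limma 0.0251). It contains 3 other genes on the same strand. PtStettler14.03G187800 (chromosome 3, 21905241 to 21922150) rose from 1.45 ± 0.281 to 2.42 ± 0.411, by 0.49 ± 0.113 (limma, adjusted p = 0.0326). In both genes every branch of stem 14 was above every branch of stem 13 among the 4 fitted branches per stem. With the branches left out of the fit, the stems overlapped for PtStettler14.03G187800. Its branch means then reached up to 1.85 in stem 13 and down to 1.72 in stem 14.

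PtStettler14.03G041200 (chromosome 3, 7039080 to 7057125), which overlaps no gene, rose from 3.46 ± 0.164 to 4.78 ± 0.555, by 0.37 ± 0.0743 (limma, adjusted p = 0.0197). PtStettler14.01G321200 (chromosome 1, 39040475 to 39057059) rose from 16.9 ± 0.983 to 19.5 ± 0.314, by 0.19 ± 0.0515 (limma, adjusted p = 0.0495). The last call was lost under 19 of 21 alternatives, where the adjusted p ranged from 0.0401 to 0.425. The other 3 calls were lost under 6 to 9 of 20 alternatives.

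The count for stems rested on single branches. Leaving out branch 13.1 or 13.2 left 1 call, leaving out 14.3 left 2, and leaving out 13.5, 14.4 or 14.5 left 0. Leaving out 13.3 gave 12 and leaving out 14.2 gave 11. There were also 0 calls when replicate 1 of every branch was left out. The share of all tested genes, 8.90% in the main fit, moved the same way. It was 5.49% without 13.1, 2.99% without 13.2, 4.33% without 13.5, 3.46% without 14.3, 2.59% without 14.4 and 2.86% without 14.5. It rose to 17.4% without 13.3 and to 15.9% without 14.2, and was 4.10% without replicate 1 of every branch.

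Tree 4 was compared with the mean of trees 13 and 14 on 5 branch means per tree. Of 263 very long genes 82, or 31.2%, were called at an adjusted p of at most 0.05, against 36.4% of all tested genes and 32.3% of median-span genes of equal TPM. Of these, 65 were higher in tree 4 (24.7%, against 17.7% of all tested genes) and 17 were lower (6.46%, against 18.7%). No very long gene was called with a change of at least 1 on the log2 scale, against 1.33% of all tested genes. This rests on the pseudocount of 1 TPM, since with 0.1 TPM the called changes of PtStettler14.01G134500 and PtStettler14.05G154700 were 1.78 and -1.20. The median change was 0.08 over very long genes and 0.01 over all tested genes, and the median size of change was 0.101 and 0.124 on the log2 scale. Branch means did not overlap for 23 very long genes, or 8.75%, against 10.6%.

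The direction differed with the level. Of the 57 very long genes under 2 TPM 17 were higher and 1 lower (29.8% and 1.75%, against 18.5% and 8.79% of all tested genes). Of the 113 from 2 to 5 TPM 32 were higher and 3 lower (28.3% and 2.65%, against 20.9% and 11.1%). Of the 50 above 10 TPM 8 were higher and 12 lower, where 14.7% of all tested genes were higher and 28.02% lower. All tested genes thus turned from more higher to more lower calls with level as well. With TPM as deposited 90 very long genes were higher and 5 lower. There the order of the shares turned, with 36.1% called, against 32.9% of all tested genes. Quantile normalization gave 59 and 15 (28.1%, against 34.0%), and leaving out the 4 libraries named above gave 55 and 20 (28.5%, against 34.0%). With the median of the very long genes taken out in each library 37 were higher and 36 lower (27.8% called, against 36.4%). This setting brings about the even split by moving their median change to 0.

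**Figure D5:**
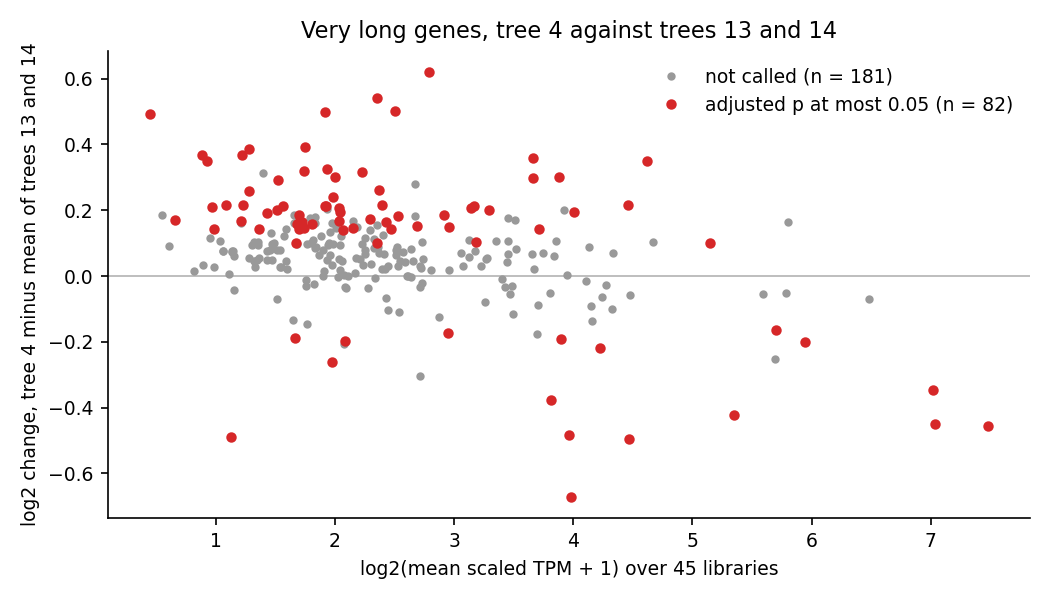
Log2 change of the 263 tested very long genes between tree 4 and the mean of trees 13 and 14 (vertical axis) against their level (horizontal axis), with called genes in red (n = 82) and others in grey (n = 181). Most called genes of low level lie above 0, whereas above 10 TPM 8 are higher and 12 lower.

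Among the genes higher in tree 4, PtStettler14.05G024700 (chromosome 5, 1796690 to 1814862) had the largest change at the pseudocount of 1 TPM, 0.62 ± 0.111 on the log2 scale (SE; limma, adjusted p = 0.000582). Its branch means ran from 3.66 to 4.91 scaled TPM in tree 13, from 4.55 to 6.02 in tree 14 and from 5.57 to 10.9 in tree 4. Trees 14 and 4 overlapped in this range. PtStettler14.01G135100, among the 6 longest genes, averaged 3.09 ± 0.428, 3.84 ± 0.881 and 5.41 ± 0.825 (SD, n = 5 branches), a change of 0.54 ± 0.101 (limma, adjusted p = 0.000764), and its highest branch of tree 14 (5.22) was above the lowest of tree 4 (4.30).

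PtStettler14.03G041200 averaged 3.39 ± 0.213 in tree 13, 4.60 ± 0.632 in tree 14 and 6.01 ± 0.351 in tree 4, a change of 0.50 ± 0.0602 (limma, adjusted p = 1.68e-05). PtStettler14.08G171000 (chromosome 8) averaged 2.20 ± 0.0950, 2.43 ± 0.356 and 3.67 ± 0.405, also a change of 0.50 (limma, adjusted p = 2.69e-05). In both genes every branch mean of tree 4 was above every branch mean of trees 13 and 14. PtStettler14.01G134500 changed by 0.49, or by 1.78 with a pseudocount of 0.1 TPM, more than the 0.71 of PtStettler14.05G024700 at that setting. It was above 0 in only 19 libraries and lies within another very long gene on the same strand.

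Among the genes lower in tree 4, PtStettler14.13G093500 (chromosome 13, 11876913 to 11899401) fell by 0.67 (SE 0.111) on the log2 scale (limma, adjusted p = 0.000295). Its branch means ran from 10.8 to 21.6 in tree 13, from 15.1 to 17.9 in tree 14 and from 9.34 to 11.5 in tree 4, so branch 13.1 lay within the range of tree 4. It contains a gene on the same strand. PtStettler14.04G179600 (chromosome 4, 20883359 to 20899703) averaged 23.8 ± 2.04, 23.2 ± 1.78 and 16.4 ± 1.79, and fell by 0.50 (limma, adjusted p = 4.94e-05). PtStettler14.02G147400 (chromosome 2, 11960200 to 11976584) averaged 17.01 ± 0.657, 15.5 ± 0.497 and 11.4 ± 0.902, and fell by 0.48 (limma, adjusted p = 7.24e-07). The last 2 genes had no branch mean of tree 4 within the range of the other trees.

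PtStettler14.04G063400, the very long gene with the highest level, averaged 196 ± 14.3, 195 ± 7.63 and 142 ± 9.76, and fell by 0.46 (SE 0.0537; limma, adjusted p = 1.33e-05). Its branch means in tree 4 did not overlap those of the other trees, whereas single libraries did (up to 158 in tree 4 and down to 156 in branch 13.1). PtStettler14.05G154700 (chromosome 5) fell by 0.49 (SE 0.172; limma, adjusted p = 0.0366), at branch means from 0.0545 to 1.57 in tree 4 that overlapped the other trees, and this call was lost under 13 of 26 alternatives.

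Without replicate 1 of every branch the count for tree 4 was 54 (20.7%, against 28.9% of all tested genes). Among genes with a mean of at least 5 TPM it was 31 of 94, or 33.0%, with 17 higher and 14 lower, against 41.5%. The other 9 named changes for tree 4 kept their call under every alternative tried except the added threshold of 1 on the log2 scale.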

How the data were processed

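Leaf RNA was sequenced from stranded, poly(A)-selected libraries. Per the labels and the study's methods, the authors trimmed reads with Trimmomatic 0.36, aligned them to the Stettler genome with HISAT2 2.1.0 and estimated expression with StringTie 1.3.4d. The authors deposited FPKM (fragments relative to transcript length and library depth) and TPM (FPKM brought to 1 common total in each library). Read counts were not used here. No gene names, exon models or sequences were used.

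Here TPM was divided by median-of-ratios factors over 25014 genes above 0 in all libraries (0.506 to 1.29). Depth was recovered from the FPKM step of 1 fragment. Covarying genes correlated above 0.8 with the leading component of deviations from branch means. A gene entered a fit if 3 or more of its libraries reached 1 TPM. Values of log2(scaled TPM + 1) were fitted in R 4.3.3 by limma 3.58.1, whose prior variance followed the mean level, and p-values were adjusted by Benjamini-Hochberg over all tested genes, in place of the DESeq2 used by the authors on counts. Branches 13.4 and 14.1, left out by the study for lack of an age, were not in the pair and stem fits. All other steps used pandas 2.3.3, scipy 1.17.1 and numpy 2.4.6 under Python 3.11.15. Fits were tested on simulated data.

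Named genes were the 6 longest, 2 on either side of the threshold, the 6 highest, all called between branches or stems, the 5 largest changes each way for tree 4, the 3 largest and 3 smallest library ratios, the longest gene at 0 in all libraries, and the 3 genes most like the longest gene above 1 TPM. Members, lists and tests were chosen with earlier results of these data known. Alternatives covered the pseudocount, filters, scaling, trend, span limits, overlap, comparison genes, and libraries or branches left out.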

Additional observations from a re-analysis of the deposited data

Results flagged for a closer look

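Among 108 groups of 5 branch means, 8 held a branch far from the others of its tree. The groups share their branches and many are of genes named for their values, so no chance rate was set beside this count. Each stood out because its gap to the nearest branch was over 0.71 of the range of the tree. In 3 groups the other branches were all at 0, namely PtStettler14.11G060300 in branch 4.2 (0.107 scaled TPM), PtStettler14.19G010400 in branch 4.4 (0.190) and PtStettler14.11G008300 in branch 14.5 (0.0187), values that rest on few fragments. PtStettler14.01G321200 was low in branch 14.1 (16.9, next 19.1) and PtStettler14.13G093500 was low in the same branch (15.1, next 17.5). PtStettler14.05G024700 (3.66, next 4.56) and PtStettler14.02G147400 (15.9, next 17.1) were low in branch 13.5. PtStettler14.05G154700 was low in branch 13.4 (0.937, next 1.31).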

How the results depend on the processing

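Across the alternatives tried, no named change reversed. Of 18 named changes, 12 kept their call under all alternatives other than the added fold threshold for tree 4. With the span limit lowered to 12371 bases 8 genes were called between branches, 12 between stems and 176 for tree 4 (1.46%, 2.19% and 31.3% of those tested, against 5.56%, 8.90% and 36.4% of all), and raised to 18674 bases 1, 1 and 41 (0.813%, 0.813% and 32.3%). With a pseudocount of 0.1 there were 11 calls between branches (4.26%, against 9.12% of all tested genes). For stems there were 2 calls with no filter (0.590%, against 4.92%). At a mean of at least 5 TPM there was 1 (1.11%, against 11.8%). TPM as deposited gave 2 (0.775%, against 4.80%), and genes that overlap no other gene gave 1 (0.469%, against 8.90%). For tree 4 there were 31 calls at a mean of at least 5 TPM (33.0%, against 41.5%). With a change of at least 1 there were 0, against 1.33%. Leaving out 1 library gave 4 to 6 calls between branches (1.55% to 2.33%, against 5.30% to 5.90% of all tested genes). Leaving out a branch or a replicate number gave 0 to 12 for stems (up to 4.65%, against 2.59% to 17.4%). For tree 4 it gave 54 to 90 (20.7% to 34.2%, against 28.9% to 37.6%). The changed span limits, the filter and left-out libraries alter how many genes or samples are tested, and other causes were not tested.

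Same-numbered libraries correlated from -0.37 to 0.49 in their deviations over all tested genes (34 of 84 pairs above 0.1, and 10 of 24 libraries closest to their own number). The median was 0.0324, against -0.0120 for different numbers, so pairing by number was weak. In very long genes, however, the median deviation of replicate 3 was below 0 in every branch except 13.3, 4.4 and 4.5. Why it was so was not tested. With a replicate block there were 4 calls between branches (1.55%, against 5.55% of all tested genes). With branch as a random effect and a replicate block there were 15 for stems (5.81%, against 22.2%).

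The library ratio was 0.813 with the median of the very long genes, but not of the comparison genes, taken out, and 1.09 to 1.15 without a replicate number. The level difference was -0.75 with a pseudocount of 0.1. The share above 0 TPM in every library was 85.2% with the lower span limit, 80.5% with the higher, 88.3% for genes overlapping no other gene, 83.3% to 84.7% without a replicate number, 78.7% at a minimum of 0.1 TPM and 55.6% at 1 TPM. Very low TPM values rest on few fragments, and fragments behind equal TPM differ with transcript length, which was not used.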
